A study of Mus musculus with 12 samples.

Results

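Cyclin-dependent kinase (CDK) inhibitors of the INK4 and KIP families were followed in mouse medulloblastoma and cerebellum by RNA sequencing. The INK4 genes are *Cdkn2a*, *Cdkn2b*, *Cdkn2c* and *Cdkn2d*, and the KIP genes are *Cdkn1b* and *Cdkn1c*. These 6 genes were taken by symbol from a table of 24091 genes, and all 6 were found. *Cdkn1a*, the remaining KIP gene, was set beside them as a neighbor in function. Levels are in TPM, which corrects for transcript length and for the total of the sample, so the levels of different genes in a sample can be set side by side.

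The table holds 12 samples in 4 groups of 3, each from flash-frozen tissue of 1 mouse. Medulloblastomas came from *Brca2*-mut;*Trp53*-mut mice GB344, GB359 and GB370, and the normal adjacent cerebellum was taken from the same 3 mice. Tumor-free cerebellum came from *Brca2*-WT;*Trp53*-mut mice GB517, GB519 and GB520, called *Trp53*-mut cerebella here, and from *Brca2*-mut;*Trp53*-WT mice GB361, GB508 and GB512, called *Brca2*-mut cerebella. In *Brca2*-mut mice a Cre transgene under the human GFAP promoter removed the exons of the PALB2-binding domain in the developing central nervous system, so cells outside that lineage kept the allele. *Trp53* was knocked out in the whole animal. No group was wild type for both genes, and tumor tissue existed in only the combined genotype. The controls were described as age-matched, and the labels give no age.

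INK4 proteins bind CDK4 and CDK6 and keep them from pairing with D-type cyclins. KIP proteins bind cyclin–CDK complexes more widely and block the CDK2 complexes that carry cells from G1 into S phase. In the postnatal cerebellum, granule cell progenitors divide under Sonic hedgehog signaling. Inhibitors such as p27, the product of *Cdkn1b*, and p18, the product of *Cdkn2c*, promote their exit from the cycle. *Cdkn2a* is unusual in that it encodes 2 unrelated proteins from separate first exons: p16INK4a, a CDK4 and CDK6 inhibitor, and p19ARF, which binds MDM2 and so stabilizes p53.

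Marker genes were read before the members. All 3 tumors held granule progenitor transcripts, with *Atoh1* between 119 and 319 TPM against at most 0.212 TPM in the 6 tumor-free cerebella. Among the adjacent cerebella, GB344 and GB359 stood apart, with *Atoh1* at 59.4 and 50.5 TPM and *Mki67* at 58.4 and 33.3 TPM, whereas GB370 held 5.0 and 2.72 TPM. *Brca2*-mut mouse GB512 held *Mki67* at 5.63 TPM, against at most 0.343 TPM in the other tumor-free cerebella, and its *Atoh1* was 0.0689 TPM. The 5 choroid plexus markers summed to between 3950 and 5169 TPM in the 3 *Trp53*-mut cerebella and to 874 TPM in *Brca2*-mut mouse GB361, against at most 64.1 TPM in the other 8 samples. Gene-level *Trp53* was 48.6 ± 1.3 TPM (SD, n = 3) in *Trp53*-mut cerebella and 34.8 ± 2.10 TPM (SD, n = 3) in *Brca2*-mut cerebella, and gene-level *Brca2* was 3.78 ± 0.583 and 3.57 ± 0.205 TPM (SD, n = 3 each). Both alleles keep exons outside the deleted part, so these sums do not check the genotype labels.

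The promoters are shown because *Cdkn2a*, *Cdkn2b* and *Cdkn2c* differed between tumor and control while *Cdkn2d* did not, and because E2F factors, released when CDKs phosphorylate the retinoblastoma protein, act at promoters of many cell cycle genes. Each RefSeq window (build GRCm38.p6) runs from 250 bases before a start site to 50 after it. The 4 genes lie on the minus strand, and the sequences are written 5′ to 3′ on that strand. *Cdkn2a* start site 1, chr4:89294570-89294869, precedes the first exon of the p19ARF transcript, and start site 2, chr4:89282143-89282442, lies 12427 bases further along the gene, before the first exon of the p16INK4a transcript. The *Cdkn2b* window is chr4:89310983-89311282, the *Cdkn2c* window at start site 1 is chr4:109666707-109667006, and the *Cdkn2d* window is chr9:21291160-21291459. Capitals mark the E2F words TTCCCGC or TTGGCGC or TTCGCGC or TTGCCGC, searched on both strands.
Cdkn2a site 1: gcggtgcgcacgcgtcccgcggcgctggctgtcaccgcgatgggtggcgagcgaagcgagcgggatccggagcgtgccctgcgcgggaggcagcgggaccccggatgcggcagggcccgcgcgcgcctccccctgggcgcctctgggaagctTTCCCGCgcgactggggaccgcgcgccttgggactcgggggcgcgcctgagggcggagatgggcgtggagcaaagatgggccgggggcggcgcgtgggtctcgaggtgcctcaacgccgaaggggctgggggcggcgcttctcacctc
Cdkn2a site 2: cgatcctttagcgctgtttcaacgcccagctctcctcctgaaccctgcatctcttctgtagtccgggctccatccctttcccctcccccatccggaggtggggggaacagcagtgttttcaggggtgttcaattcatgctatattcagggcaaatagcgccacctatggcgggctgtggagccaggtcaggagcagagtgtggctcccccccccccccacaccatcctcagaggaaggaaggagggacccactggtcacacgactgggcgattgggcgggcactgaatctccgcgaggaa
Cdkn2b: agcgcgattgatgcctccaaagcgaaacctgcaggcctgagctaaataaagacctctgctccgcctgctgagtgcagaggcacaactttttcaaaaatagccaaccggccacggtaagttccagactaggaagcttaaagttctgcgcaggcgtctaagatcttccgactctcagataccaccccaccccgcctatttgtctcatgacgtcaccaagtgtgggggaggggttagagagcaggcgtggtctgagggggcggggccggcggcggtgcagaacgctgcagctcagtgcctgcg
Cdkn2c site 1: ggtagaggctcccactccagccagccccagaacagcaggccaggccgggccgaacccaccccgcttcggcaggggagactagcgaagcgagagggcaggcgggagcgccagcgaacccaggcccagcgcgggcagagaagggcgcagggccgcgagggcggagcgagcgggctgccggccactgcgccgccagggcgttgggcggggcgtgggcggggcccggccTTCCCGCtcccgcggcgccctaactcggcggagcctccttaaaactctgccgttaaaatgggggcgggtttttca
Cdkn2d: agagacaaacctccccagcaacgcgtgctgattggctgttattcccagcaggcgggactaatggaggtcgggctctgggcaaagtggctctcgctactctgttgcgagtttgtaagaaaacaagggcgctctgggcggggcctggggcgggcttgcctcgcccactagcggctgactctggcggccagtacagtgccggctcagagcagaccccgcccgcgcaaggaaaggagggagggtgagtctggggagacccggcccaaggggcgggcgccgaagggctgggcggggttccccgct
An E2F word stood at -98 from *Cdkn2a* start site 1 and at -25 from *Cdkn2c* start site 1, in each case once. The windows of *Cdkn2a* site 2, *Cdkn2b*, *Cdkn2d* and *Cdkn1b*, and a further window of *Cdkn2c*, held none. Of 32544 RefSeq windows of this length, 9.64% held at least 1 of these words. The GC box GGGCGG was found from 1 to 5 times in 6 of the 7 windows of the members and in 35.9% of all windows. The E-box CACGTG stood once, in the second *Cdkn2c* window, against 7.17% of all windows. The GLI word GACCACCCA (0.246% of all windows) and the forkhead word TGTTTAC (3.66%) stood in none of the 7. These matches describe letters in a window and not binding. Window GC content was 77% at *Cdkn2a* site 1 and 73.3% at *Cdkn2c* site 1, against a mean of 53.9% over all windows.

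*Cdkn2a* rose most among the members. Its gene (Entrez 12578, chr4:89274473-89294619, minus strand, mm10) was at 126, 115 and 321 TPM in the tumors of GB344, GB359 and GB370. In the adjacent cerebella of these mice it was at 14, 17.3 and 5.36 TPM. In *Brca2*-mut cerebella GB361, GB508 and GB512 it was at 1.73, 0.342 and 7.74 TPM. Among the *Trp53*-mut cerebella it was listed at 0 TPM in GB517 and GB519 and at 0.655 TPM in GB520. Every tumor lay above every other sample, and the next highest, an adjacent cerebellum, was far below. The spread within the tumors was wide, with a mean of 187 ± 116 TPM (SD, n = 3). On the log2(TPM + 1) scale, tumors exceeded *Trp53*-mut cerebella by 7.15 ± 0.42 (SE; limma, adjusted p = 1.98e-05), the 8th largest positive difference of 15970 genes. The size of this difference depends on the constant added before the logarithm, since 2 controls were at 0: it was 12.01 with 0.01 added. Against *Brca2*-mut cerebella the difference was 5.73 ± 0.70 (limma, adjusted p = 0.000341). The deposited values are summed over the transcripts of a gene, so p16INK4a and p19ARF transcripts cannot be told apart. In bulk tissue, fewer cells that express a gene and less RNA per cell cannot be told apart either.

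**Figure D1:**
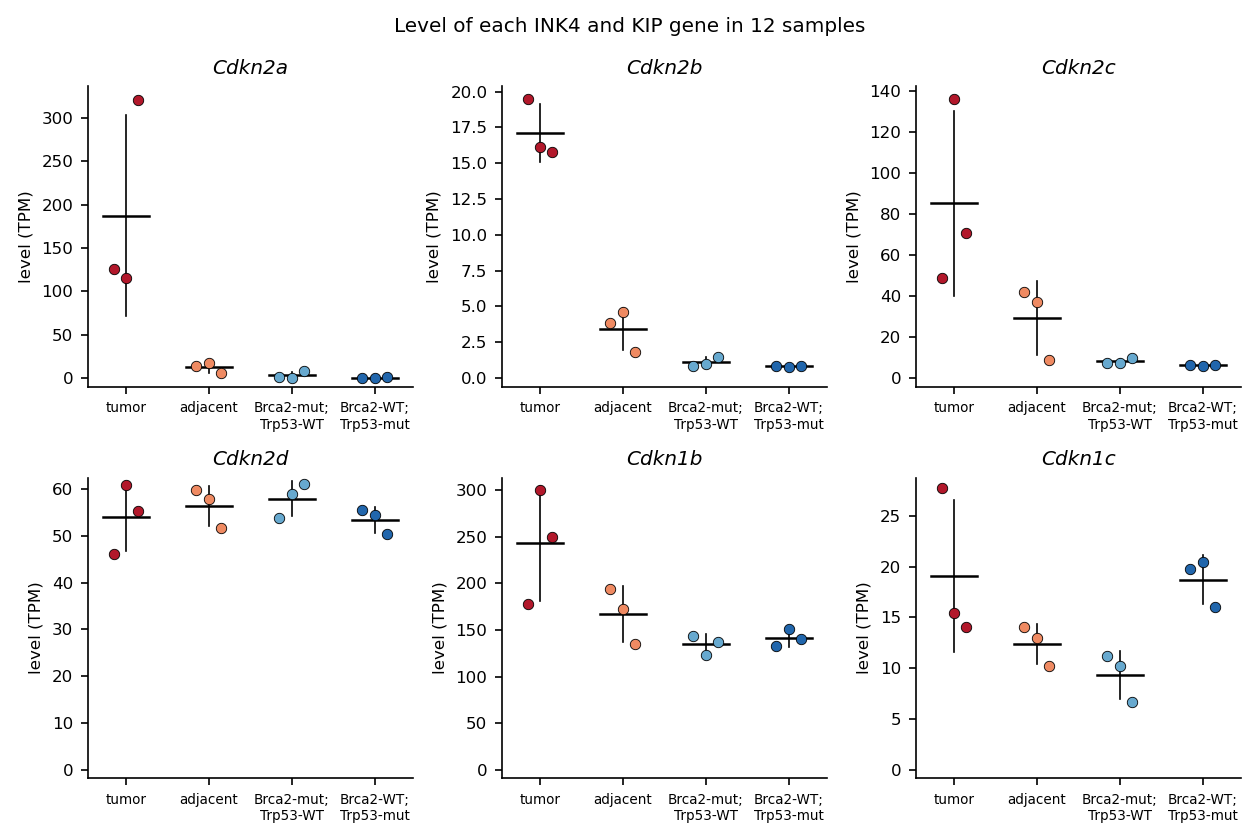
Level of each member in TPM (vertical axis, linear from 0) in the 4 groups. Each point is 1 sample, the horizontal bar is the mean and the vertical bar the SD of 3 samples. Tumors lie above all other samples for *Cdkn2a*, *Cdkn2b* and *Cdkn2c*, while the 4 groups overlap for *Cdkn2d*. How many of all genes separate in this way was not counted.

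*Cdkn2b*, which encodes the INK4 protein p15 and lies beside *Cdkn2a* (Entrez 12579, chr4:89306289-89311032, minus strand), rose in the same direction from a lower level. It was at 19.5, 16.1 and 15.8 TPM in the tumors of GB344, GB359 and GB370, and at 3.87, 4.62 and 1.81 TPM in their adjacent cerebella. *Brca2*-mut cerebella GB361, GB508 and GB512 held 0.855, 0.959 and 1.5 TPM. *Trp53*-mut cerebella GB517, GB519 and GB520 held 0.836, 0.778 and 0.808 TPM. The tumors agreed closely with each other, and adjacent cerebella lay between them and the tumor-free tissue without overlap on either side. The tumor mean was 21.2 times the *Trp53*-mut mean and 15.5 times the *Brca2*-mut mean. On the log2(TPM + 1) scale, where the added constant makes differences of low genes smaller than these ratios, the tumors were higher by 3.32 ± 0.14 (limma, adjusted p = 8.31e-06) and 3.11 ± 0.19 (limma, adjusted p = 2.10e-05).

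*Cdkn2c*, which encodes p18 (Entrez 12580, chr4:109660876-109666756, minus strand), was the most abundant of these 3 genes in tumor-free tissue. The tumors of GB344, GB359 and GB370 held 49.0, 136 and 70.6 TPM, and their adjacent cerebella 42.1, 37.0 and 8.72 TPM. In *Brca2*-mut cerebella GB361, GB508 and GB512 the levels were 7.40, 7.18 and 9.73 TPM. In *Trp53*-mut cerebella GB517, GB519 and GB520 they were 6.48, 6.05 and 6.15 TPM. The adjacent cerebella of GB344 and GB359 were close to the lowest tumor, and that of GB370 was within the range of tumor-free tissue. Tumors exceeded *Trp53*-mut cerebella by 3.45 ± 0.34 on the log2 scale (limma, adjusted p = 0.000150) and *Brca2*-mut cerebella by 3.13 ± 0.35 (limma, adjusted p = 0.000227). Without the added constant, the tumor mean was 13.7 times the *Trp53*-mut mean and 10.5 times the *Brca2*-mut mean.

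*Cdkn2d*, which encodes the INK4 protein p19INK4d (Entrez 12581, chr9:21288459-21291421, minus strand), did not pass the test in any comparison. It was at 46.2, 60.9 and 55.4 TPM in the tumors of GB344, GB359 and GB370, and at 59.8, 57.9 and 51.6 TPM in their adjacent cerebella. *Brca2*-mut cerebella held 53.9 to 61.2 TPM and *Trp53*-mut cerebella 50.3 to 55.7 TPM, so all groups overlapped. The log2 difference between tumors and *Trp53*-mut cerebella was 0.01, with a 95% interval from -0.29 to 0.31, and against *Brca2*-mut cerebella it was -0.10, with an interval from -0.42 to 0.21. These intervals bound the difference in TPM share and not in RNA per cell, and the sign of these small differences changed with the scaling or the samples used.

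The KIP gene *Cdkn1b*, which encodes p27 (Entrez 12576, chr6:134920401-134925525, plus strand), had the highest level of the 6 members in tumor-free cerebella. The tumors of GB344, GB359 and GB370 held 178, 301 and 250 TPM, and their adjacent cerebella 194, 172 and 135 TPM. *Brca2*-mut cerebella held 144, 124 and 137 TPM and *Trp53*-mut cerebella 133, 151 and 140 TPM. The tumors lay above all 6 tumor-free cerebella but overlapped the adjacent tissue. The log2 difference was 0.81 ± 0.19 against *Brca2*-mut cerebella (limma, adjusted p = 0.00792), below the minimum of 1 set for a call. Against *Trp53*-mut cerebella it was 0.75 ± 0.19 (limma, adjusted p = 0.0113). Without the tumor of GB344 the first of these was 1.02 (adjusted p = 0.000378, with a range from 0.000378 to 0.0345 over its alternatives) and *Cdkn1b* was called.

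*Cdkn1c*, which encodes p57 and is expressed from the maternal allele (Entrez 12577, chr7:143458339-143461059, minus strand), had another order of groups. The tumors of GB344, GB359 and GB370 held 27.7, 15.4 and 14.1 TPM, and their adjacent cerebella 14, 13.0 and 10.2 TPM. *Trp53*-mut cerebella GB517, GB519 and GB520 held 19.7, 20.4 and 16.0 TPM. *Brca2*-mut cerebella GB361, GB508 and GB512 held 11.2, 10.2 and 6.66 TPM. The tumors spanned the *Trp53*-mut cerebella and lay above the *Brca2*-mut cerebella. The log2 difference of the tumors was -0.03 ± 0.26 against *Trp53*-mut cerebella (limma, adjusted p = 0.926). It was 0.92 ± 0.30 against *Brca2*-mut cerebella (limma, adjusted p = 0.0291), and neither was called. Choroid plexus markers summed to 3950 to 5169 TPM in *Trp53*-mut cerebella, 17.9 to 874 TPM in *Brca2*-mut cerebella and 22.3 to 49.7 TPM in tumors. The part of choroid plexus content in these differences was not tested. The highest tumor, GB344, also held the highest summed meningeal fibroblast markers of the 12 samples, with 339 TPM over 5 genes against 40.1 TPM in GB359 and 101 TPM in GB370. *Igf2*, which also belongs to the imprinted domain of *Cdkn1c*, made up 212 TPM of this sum, against 12.3 and 29.8 TPM in the other tumors. The remaining 4 markers summed to 127, 27.8 and 70.8 TPM in the tumors of GB344, GB359 and GB370 and to between 47.5 and 83.5 TPM in the other 9 samples. Of these 4, *Lum*, *Col1a1* and *Col1a2* were highest in the tumor of GB344, whereas *Dcn* was at 31.2 TPM there against 33.6 TPM in the tumor of GB370 and up to 43.4 TPM in adjacent cerebellum. *H19*, a noncoding RNA gene of the imprinted domain, was at 73.5 TPM in the tumor of GB344 against 2.27 and 2.87 TPM in the others. The part of these cells or of the domain in the *Cdkn1c* level was not tested. Without the tumor of GB344 the log2 difference from *Brca2*-mut cerebella was 0.63.

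A gene was called where its adjusted p was below 0.01 and its log2 difference reached 1 in either direction. By this rule 3 of 6 members, *Cdkn2a*, *Cdkn2b* and *Cdkn2c*, were higher in tumors than in *Trp53*-mut cerebella and 0 were lower, where 13.5% of 15970 genes were called higher and 22.3% lower. *Cdkn2a*, *Cdkn2b* and *Cdkn2c* were also the 3 members higher in tumors than in *Brca2*-mut cerebella, with 0 lower, where the calls were 14.3% higher and 20.5% lower of 15767 genes. Over the 6 members the median log2 difference was 2.04 and 2.02 in these comparisons, against -0.16 and -0.03 over all genes tested. The 3 tumors are shared by both, so the comparisons are not independent of each other. The share of all genes whose groups did not overlap was not counted. At an unadjusted p under 0.05, 4 members were higher and 0 lower against *Trp53*-mut cerebella, where 29.2% of all genes tested were higher and 39.8% lower. Against *Brca2*-mut cerebella the counts at this level were 5 and 0, beside 31.9% and 35.3% of all genes, and 5 members were higher at an adjusted p under 0.05, beside 29.9%.

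**Figure D2:**
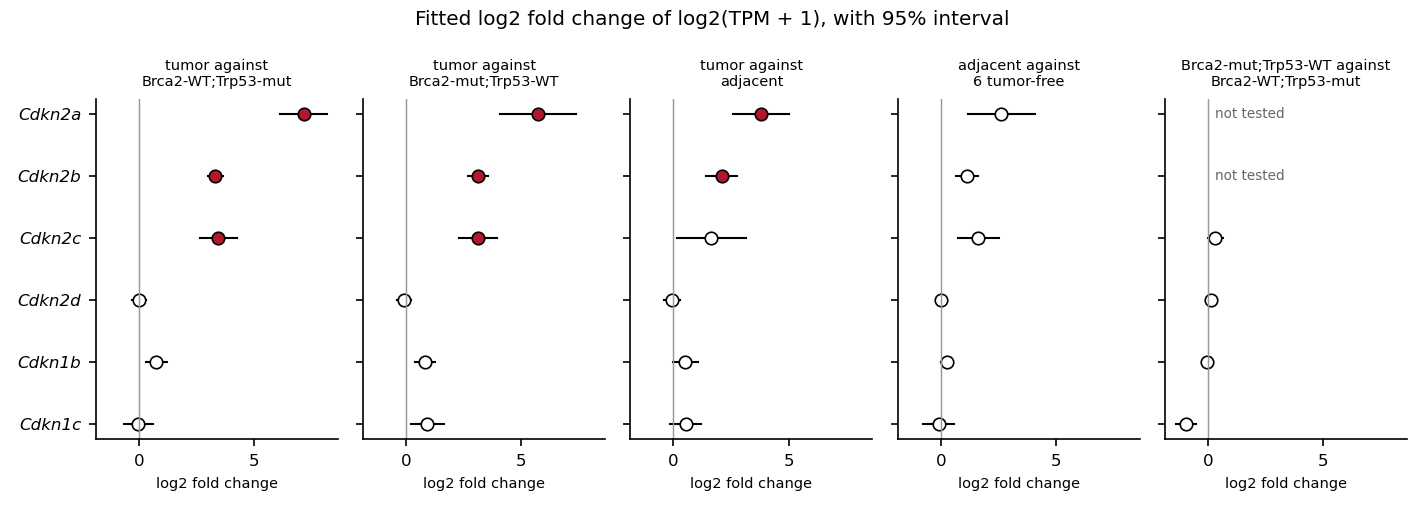
Fitted difference in log2(TPM + 1) of each member in 5 comparisons (horizontal axis, log2 fold change), with its 95% interval. Filled points passed the call rule. *Cdkn2a* and *Cdkn2b* are filled in all 3 comparisons with tumor tissue, *Cdkn2c* in 2 of them, and no point is filled in the others, where *Cdkn2a* and *Cdkn2b* failed the expression filter of the last comparison and were not tested.

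Tumor and adjacent cerebellum of the same mouse were compared to ask which differences held within an animal. *Cdkn2a* was higher in the tumor in 3 of 3 mice, by 9.02 times in GB344, 6.65 times in GB359 and 59.8 times in GB370. *Cdkn2b* was higher in 3 of 3 mice, by 5.03, 3.49 and 8.73 times. For both genes the largest ratio was that of GB370, whose adjacent cerebellum held the fewest progenitor transcripts. The log2 difference was 3.8 ± 0.52 for *Cdkn2a* (limma, adjusted p = 0.00142), the 2nd largest positive difference of 15845 genes, and 2.09 ± 0.29 for *Cdkn2b* (limma, adjusted p = 0.00147). *Cdkn2c* was higher in 3 of 3 mice as well, but by only 1.16 times in GB344, 3.68 times in GB359 and 8.09 times in GB370, and its log2 difference of 1.65 ± 0.63 was not called (limma, adjusted p = 0.0641). The share of all genes that moved in 1 direction in 3 of 3 mice was not counted. In this comparison 2 of 6 members were called higher and 0 lower, where 4.76% of 15845 genes were called higher and 18.0% lower. With quantile normalization the whole table gave 1603 genes higher and 2192 lower in place of 755 and 2852, and the count of members stayed at 2. *Cdkn2d* was at 0.772, 1.05 and 1.07 times its adjacent level in GB344, GB359 and GB370, and *Cdkn1b* at 0.916, 1.75 and 1.86 times. *Cdkn1c* was at 1.98, 1.18 and 1.38 times its adjacent level, with a log2 difference of 0.53 ± 0.28 (limma, adjusted p = 0.152).

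With the mouse as a block, the log2 differences of *Cdkn2a* and *Cdkn2b* had adjusted p of 0.00676 and 0.00267 by limma, and both remained called. Without the adjacent cerebella of GB344 and GB359, which leaves 1 adjacent sample assumed to vary like the tumors, the difference was 4.72 for *Cdkn2a* (adjusted p = 0.0116, with a range from 0.000397 to 0.0116 over its alternatives) and 2.68 for *Cdkn2b* (adjusted p = 0.00887, with a range from 1.94e-05 to 0.00887). The count of members called then fell from 2 to 1, *Cdkn2b*, and the genes called higher in the whole table fell from 755 to 500. For *Cdkn2c* the difference was 3.02 without these samples (adjusted p = 0.0237, with a range from 0.0138 to 0.176).

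**Figure D3:**
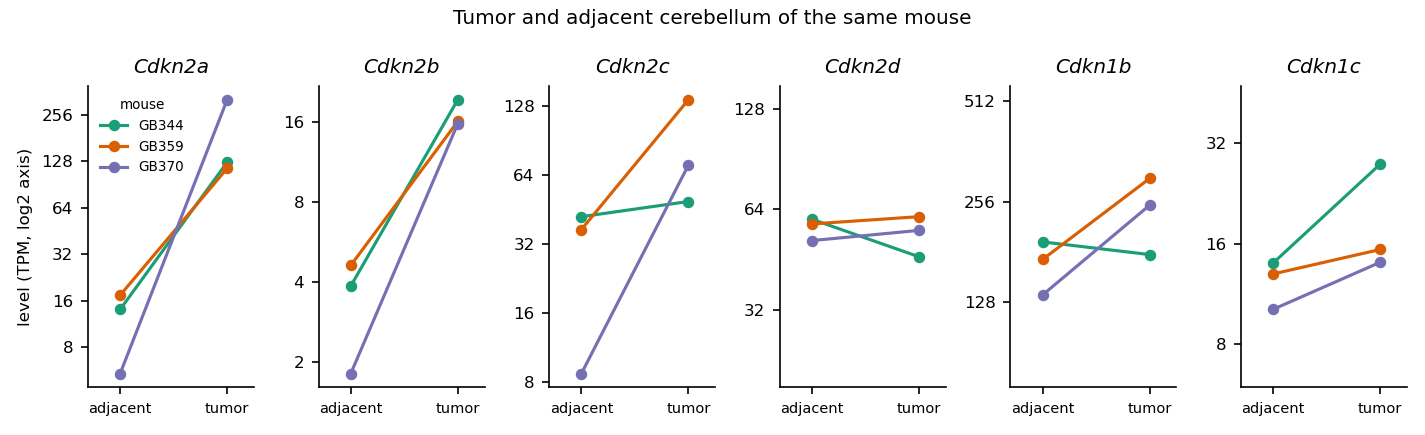
Level of each member (vertical axis, TPM on a log2 axis) in adjacent cerebellum and tumor, with a line for each of the 3 mice. All 3 lines rise for *Cdkn2a*, *Cdkn2b*, *Cdkn2c* and *Cdkn1c*, while GB344 falls for *Cdkn2d* and *Cdkn1b*.

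Adjacent cerebellum was compared with the 6 tumor-free cerebella to ask whether the members differed outside the tumor mass. Of the 6 members 0 were called higher and 0 lower by limma, where 0.224% of 16091 genes were called higher and 0.0124% lower. At an unadjusted p under 0.05, 4 members were higher and 0 lower, beside 22.1% and 12.4% of all genes. At an adjusted p under 0.05, 3 members were higher, beside 10.1%. The log2 difference was 2.64 ± 0.66 for *Cdkn2a* (limma, adjusted p = 0.0291), 1.13 ± 0.22 for *Cdkn2b* (limma, adjusted p = 0.0164) and 1.64 ± 0.40 for *Cdkn2c* (limma, adjusted p = 0.0274). It was 0.02 for *Cdkn2d* and 0.26 for *Cdkn1b*. For *Cdkn1c* it was -0.09 against both genotypes, -0.56 against *Trp53*-mut cerebella alone (limma, adjusted p = 0.0987) and 0.39 against *Brca2*-mut cerebella alone (limma, adjusted p = 0.261). Choroid plexus markers summed to at least 3950 TPM in *Trp53*-mut cerebella and to at most 64.1 TPM in adjacent cerebella. In *Brca2*-mut cerebella GB361, GB508 and GB512 they summed to 874, 17.9 and 22.6 TPM, which overlapped the adjacent cerebella. The part of choroid plexus content in these *Cdkn1c* differences was not tested. The levels moved with the progenitor and proliferation markers of the adjacent samples. The 7 proliferation markers summed to 546 and 429 TPM in GB344 and GB359 and to 137 TPM in GB370, against 103 to 162 TPM in tumor-free tissue. *Pcna* made up 103 TPM of this sum in GB370 and 90.1 to 112 TPM in tumor-free tissue. *Atoh1* was at 5.0 TPM in GB370 against at most 0.212 TPM in tumor-free tissue, so GB370 also carried progenitor transcripts. Without the adjacent cerebella of GB344 and GB359 the differences were 1.71 for *Cdkn2a*, 0.53 for *Cdkn2b* and 0.27 for *Cdkn2c*. Without that of GB370, *Cdkn2b* and *Cdkn2c* were called, with differences of 1.43 and 2.32, and the genes called higher in the whole table rose from 36 to 564, or 3.51%. Tumor cells within the dissected adjacent tissue and a change in its own cells cannot be told apart in these libraries.

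The 2 tumor-free genotypes were compared with each other to ask whether the members' levels differed between them. They differ in both *Brca2* and *Trp53*, and no group was wild type for both. This comparison therefore cannot isolate either allele, and like effects of both alleles would cancel. By limma 0 members were called higher and 0 lower, where 0.0128% of 15575 genes were called higher and 0.0449% lower. At an unadjusted p under 0.05, *Cdkn2c* was higher and *Cdkn1c* lower in *Brca2*-mut cerebella, beside 4.78% of all genes higher and 15.3% lower. *Cdkn2a* and *Cdkn2b* did not pass the filter of 1 TPM in 3 samples and were not tested. *Cdkn1c* was lower in *Brca2*-mut cerebella by 0.95 ± 0.19 on the log2 scale (limma, adjusted p = 0.0780), without overlap between the groups. Choroid plexus epithelium is a known site of *Cdkn1c* expression, and its markers moved with the same split. *Ttr* was at 3957, 5039 and 3849 TPM in *Trp53*-mut cerebella GB517, GB519 and GB520 and at 842, 9.6 and 11.8 TPM in *Brca2*-mut cerebella GB361, GB508 and GB512. *Kl* was at 38.3 to 50.3 TPM in the former and at 2.11 to 10.7 TPM in the latter. Each of the 5 markers was higher in every *Trp53*-mut than in every *Brca2*-mut cerebellum, and none was at 0 in these 6 samples. Among the *Brca2*-mut cerebella, GB361 held the most of these transcripts, with *Cdkn1c* at 11.2 TPM against 10.2 TPM in GB508 and 6.66 TPM in GB512. All 3 *Trp53*-mut cerebella carried these transcripts, so genotype and choroid plexus content cannot be told apart for *Cdkn1c*. For *Cdkn2c*, *Cdkn2d* and *Cdkn1b* the differences were 0.32, 0.11 and -0.06, with adjusted p of 0.238, 0.439 and 0.688 by limma. Without GB512 the *Cdkn2c* difference was 0.20.

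The makeup of the summed INK4 gene level shifted between tissues. *Cdkn2a* enters this sum with its p16INK4a and p19ARF transcripts together, which cannot be told apart. In tumor-free cerebella *Cdkn2d* made up from 76.3% to 88.9% of the summed INK4 TPM and *Cdkn2a* at most 9.66%. In the tumors of GB344, GB359 and GB370, *Cdkn2a* made up 52.4%, 35.1% and 69.4%, and *Cdkn2d* from 12% to 19.2%. *Cdkn2c* took the largest share, 41.4%, in the tumor of GB359. The summed INK4 level was 241, 328 and 463 TPM in the tumors, 120, 117 and 67.5 TPM in adjacent cerebella, and 58.0 to 80.2 TPM in the tumor-free cerebella. The summed KIP level of *Cdkn1b* and *Cdkn1c* varied less, from 206 to 316 TPM in tumors and from 134 to 171 TPM in tumor-free cerebella.

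**Figure D4:**
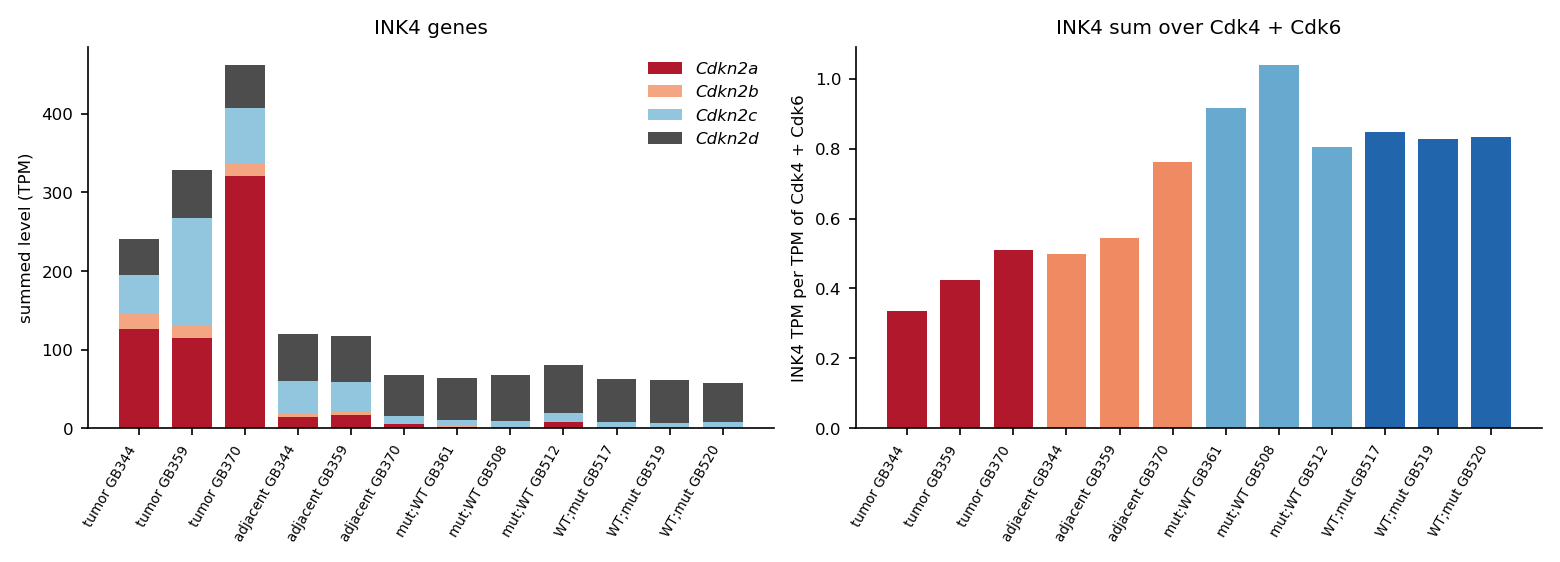
Left, summed level of the 4 INK4 genes in each sample (stacked bars, TPM), and right, this sum divided by the summed TPM of *Cdk4* and *Cdk6* (bars, ratio). mut;WT is *Brca2*-mut;*Trp53*-WT and WT;mut is *Brca2*-WT;*Trp53*-mut. *Cdkn2d* forms most of each tumor-free bar and *Cdkn2a* or *Cdkn2c* the largest part of each tumor bar, while the ratio is lower in every tumor than in every tumor-free cerebellum. The *Cdkn2a* part holds p16INK4a and p19ARF transcripts together.

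Of the kinases and cyclins that these proteins bind, most rose. Of 9 binding partners tested, 6 were higher in tumors than in *Trp53*-mut cerebella and 0 lower, with a median log2 difference of 3.32, beside the 13.5% and 22.3% of all genes given above. *Cdk6* was at 41.8, 101 and 69.4 TPM in the tumors and between 0.591 and 1.60 TPM in the tumor-free cerebella (log2 difference 5.29 ± 0.30 against *Trp53*-mut cerebella). *Cdk4* was at 674, 673 and 840 TPM in the tumors and between 64.2 and 97.9 TPM in tumor-free cerebella (log2 difference 3.32 ± 0.11). The cyclins *Ccnd2*, *Ccna2* and *Ccnd1* were higher by 6.37, 5.75 and 3.26 on the log2 scale, and *Cdk2* by 3.76. The remaining 3, *Ccne2*, *Ccne1* and *Ccnd3*, had differences of 1.0, 0.94 and 0.19 and were not called, the first lying just below the minimum of 1, though *Ccne2* was called against *Brca2*-mut cerebella. Against adjacent cerebella only *Cdk4* and *Cdk2* were called of these 9, with differences of 2.21 and 2.12, beside 4.76% of all genes called higher. The INK4 sum per TPM of *Cdk4* and *Cdk6* together was 0.337, 0.424 and 0.509 in the tumors of GB344, GB359 and GB370, 0.500, 0.544 and 0.761 in their adjacent cerebella, and 0.806 to 1.04 in the tumor-free cerebella. Tumors overlapped adjacent cerebella and lay below all tumor-free cerebella. *Cdkn1b* per TPM of *Cdk2* was 3.72 to 6.38 in tumors, 11.5 to 32.8 in adjacent cerebella and 41.0 to 55.3 in tumor-free cerebella. These ratios describe RNA and not protein. The INK4 sum counts all *Cdkn2a* RNA, including p19ARF transcripts, which do not encode the CDK4 and CDK6 inhibitor. The share of p16INK4a in the tumor ratio is therefore unknown.

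Among the other CDK-inhibitor genes, *Cdkn1a*, the p53 target that encodes p21, had its lowest mean in tumors, whose values overlapped those of *Trp53*-mut cerebella. It was at 14.6, 21.0 and 13.5 TPM in the tumors of GB344, GB359 and GB370 and at 45.5, 48.9 and 72.1 TPM in their adjacent cerebella. *Brca2*-mut cerebella held 25.5 to 30.3 TPM and *Trp53*-mut cerebella 16.7 to 25.1 TPM. *Cdkn1a* fell by 1.70 on the log2 scale from adjacent cerebellum to tumor (limma, adjusted p = 0.00165), in 3 of 3 mice. The tumors, the adjacent cerebella and the *Trp53*-mut cerebella all lack p53. Adjacent cerebellum was above all 6 tumor-free cerebella, of both genotypes, by 1.14 ± 0.19 (limma, adjusted p = 0.0116), which was not called. *Cdkn3*, a phosphatase that acts on CDKs, rose in tumors by 3.47 ± 0.26 against *Trp53*-mut cerebella (limma, adjusted p = 4.58e-05) and by 2.41 ± 0.51 against adjacent cerebellum (limma, adjusted p = 0.00801).

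In the ARF pathway, 2 of 4 genes tested were higher in tumors than in *Trp53*-mut cerebella and 0 lower. Of all genes, 13.5% were called higher and 22.3% lower there. *Npm1*, which encodes nucleophosmin, the nucleolar partner of p19ARF, rose by 2.59 ± 0.16. Gene-level *Trp53* rose by 1.37 ± 0.08, although these mice carry the knockout allele. *Mdm2*, the p53 ubiquitin ligase that p19ARF binds, was at 43.8, 45.9 and 54.1 TPM in tumors and 38.2 to 45.3 TPM in *Trp53*-mut cerebella (log2 difference 0.20, adjusted p = 0.180 by limma). *Cdkn1a* was the remaining gene, with a difference of -0.37 (limma, adjusted p = 0.177).

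Of the 2 genes tested beside *Cdkn2a* and *Cdkn2b*, 2 were called higher in tumors than in *Trp53*-mut cerebella, beside 13.5% of all genes. Against adjacent cerebella 1 of the 2 was called higher, beside 4.76% of all genes. *Mtap*, which salvages methionine and flanks the locus, was at 46.7, 34.1 and 42.8 TPM in tumors and 9.25 to 11.6 TPM in *Trp53*-mut cerebella (log2 difference 1.92 ± 0.16, limma, adjusted p = 6.94e-05). *Dmrta1* was at 3.08, 1.34 and 1.44 TPM in tumors and at most 0.456 TPM in *Trp53*-mut cerebella (log2 difference 1.06 ± 0.24, limma, adjusted p = 0.00723). Both changes were smaller than those of *Cdkn2a* and *Cdkn2b*. The *Dmrta1* levels were low, with every *Trp53*-mut cerebellum below the filter of 1 TPM.

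Regulators of the *Cdkn2a* locus moved in both directions. Of 19 tested, 5 were higher and 2 lower in tumors than in *Trp53*-mut cerebella, with a median log2 difference of 0.53. The shares over all genes were 13.5% higher and 22.3% lower. *Ezh2*, the methyltransferase of Polycomb repressive complex 2 that silences this locus in many cells, rose by 3.46 ± 0.17, from 11.1 to 12.6 TPM in *Trp53*-mut cerebella to 108, 161 and 156 TPM in tumors. *Cbx7*, a reader of that mark within Polycomb repressive complex 1, fell by 2.92 on the log2 scale, to 3.42, 19.4 and 14.7 TPM in tumors from 75.6 to 94.3 TPM in *Trp53*-mut cerebella. *Zbtb7a*, a repressor of the ARF promoter, fell by 1.66 on the log2 scale. The part of these regulators in the *Cdkn2a* level was not tested.

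Genes that control the turnover of p27 and p57 gave 3 higher and 2 lower of 14 tested, with a median log2 difference of 0.20. Beside this count and those of the other lists in this paragraph stand 13.5% of all genes higher and 22.3% lower. All are for tumors against *Trp53*-mut cerebella. *Skp2*, the F-box protein that marks p27 for degradation, and *Cks1b*, its cofactor, rose by 2.22 ± 0.17 and 4.86 ± 0.18. *Dtl*, a substrate adaptor of another ubiquitin ligase, rose by 4.07 ± 0.18. Among activators of KIP and *Cdkn2c* transcription, 1 was higher and 1 lower of 6 tested, with a median of -0.08. *Foxo6* rose by 4.98 ± 0.30, and *Foxo3*, whose protein activates *Cdkn1b*, fell by 1.38 on the log2 scale. In the imprinted domain of *Cdkn1c*, 0 of 7 tested genes were higher and 1 was lower, *Cd81*, which fell by 1.33 on the log2 scale. *Igf2* and *H19* were at 5.67 and 16.3 times their adjacent level in GB344, the mouse whose tumor held the most *Cdkn1c*. They were at 0.320 and 0.718 times in GB359 and at 0.386 and 1.36 times in GB370. *Kcnq1ot1*, the noncoding RNA that silences the domain on the paternal chromosome, had a difference of -0.30 (limma, adjusted p = 0.140). *Kcnq1ot1*, *Igf2* and *H19* were named after their values were seen.

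Across all 12 samples, *Cdkn2a*, *Cdkn2b*, *Cdkn2c* and *Cdkn1b* varied together. The correlation of log2(TPM + 1) was 0.965 between *Cdkn2a* and *Cdkn2b*, 0.921 between *Cdkn2a* and *Cdkn2c* and 0.942 between *Cdkn2b* and *Cdkn2c*. *Cdkn1b* followed *Cdkn2c* with 0.932. *Cdkn2d* and *Cdkn1c* stood apart from these and from each other, with a correlation of -0.576 between them and at most 0.354 with any other member. These 12 points include 3 pairs from the same mice and the large step between tumor and control, so the values are descriptions. Between groups, *Cdkn2a*, *Cdkn2b* and *Cdkn2c* moved with the summed proliferation markers, which ran from 103 to 162 TPM in tumor-free cerebella and from 1233 to 1495 TPM in tumors. Within groups the order often differed: *Cdkn2b* was highest in the tumor with the lowest marker sum, GB344, and *Cdkn2a* and *Cdkn2b* were higher in adjacent GB359 than in adjacent GB344, whose marker sum was larger. All 7 proliferation markers and 5 of 6 granule progenitor markers tested were called higher in tumors than in *Trp53*-mut cerebella, while 4 of 6 granule neuron markers and all 5 Purkinje markers were called lower. Over all genes, 13.5% were called higher and 22.3% lower in this comparison. The part of cell content in the members' levels was not tested.

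**Figure D5:**
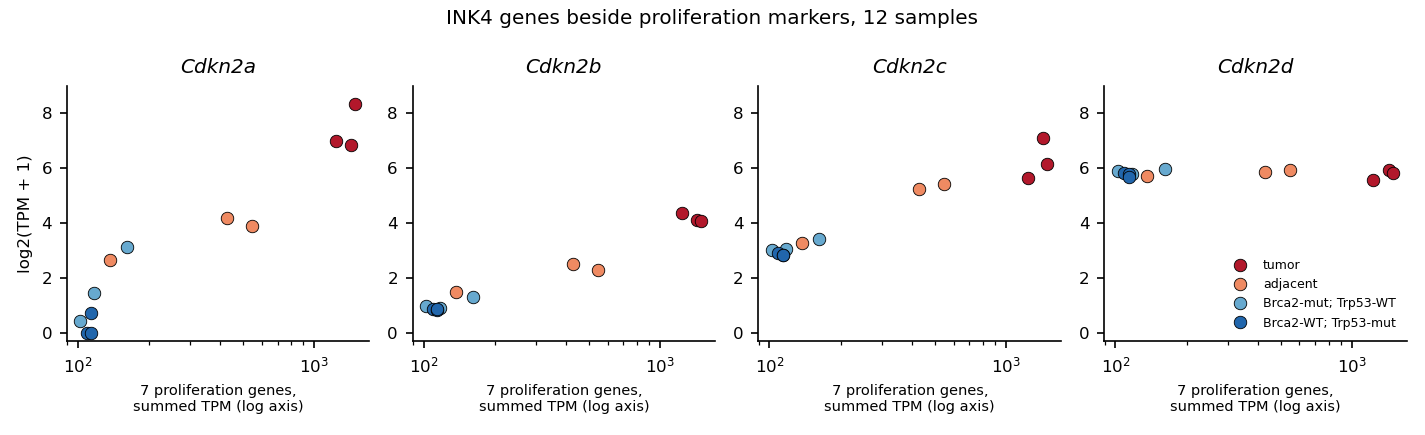
Level of each INK4 gene (vertical axis, log2(TPM + 1)) against the summed TPM of 7 proliferation markers (horizontal axis, log scale), with 1 point for each of 12 samples. For *Cdkn2a*, *Cdkn2b* and *Cdkn2c*, adjacent cerebella GB344 and GB359 lie between the tumors and the rest, and *Cdkn2d* is level throughout.

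The genes whose pattern was most like each member were sought among 16498 genes by Pearson correlation over 12 samples. For *Cdkn2a* they were *Cenph*, a kinetochore gene, with 0.983, *Lmcd1* with 0.981 and *Cd1d1* with 0.978. For *Cdkn2b* they were the ribosomal protein genes *Rps18* with 0.996 and *Rpl14* and *Rpl10a* with 0.995 each. For *Cdkn2c* they were *Cklf* with 0.991, its own target kinase *Cdk6* with 0.987, and *Zfhx3* with 0.987. For *Cdkn1b* they were *Gab1* with 0.985, *Zbed3* with 0.983 and *Meis1* with 0.978. The closest to *Cdkn2d* were weaker, *Clip2* with 0.873, *Bcar1* with 0.849 and *Rnf5* with 0.843, as were those of *Cdkn1c*, *Acaa2* with 0.909, *Gm3558* with 0.862 and *Lbp* with 0.860. Many genes share the step between tumor and control, so a high value alone marks that step.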

How the data were processed

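RNA from 12 flash-frozen mouse tissues was sequenced by the authors as poly(A)-selected libraries, quantified with Salmon 0.8.1 (per the labels) on mm10 transcripts and summed to genes. The deposited values are TPM for 24091 genes and sum to between 999793 and 999876 per sample. Read depth is unknown, so precision rests on the spread between mice and no counting interval is given. Values entered the model as log2(TPM + 1), and a gene was kept for a comparison when 3 or more of its samples reached 1 TPM. The test was limma 3.58.1 (two-sided, eBayes with intensity trend, R 4.3.3) and Benjamini-Hochberg adjustment over all of them. The thresholds follow the study. Each fit used the groups compared. Mouse numbers pair tumor and adjacent tissue of the same animal, and the correlations of their deviations from the group means were 0.249, 0.176 and 0.152. In simulated data, 90 of 100 genes changed by 2 and 93 of 100 changed by 4 on the log2 scale were recovered for tumor against *Brca2*-WT;*Trp53*-mut cerebellum over 15970 genes, with 0 false calls. The recovered numbers were 75 and 95 for tumor against adjacent cerebellum over 15845 genes, with 1 false call, and 86 and 98 for tumor against *Brca2*-mut;*Trp53*-WT cerebellum over 15767 genes, with 4. The changed genes were drawn only from those with a control mean log2(TPM + 1) above 5. *Cdkn2a*, *Cdkn2b*, *Cdkn2c* and *Cdkn1c* lay below this in the controls, so the recovered numbers do not describe genes at their level. The members, gene lists and tests were chosen with earlier results of these data known. Named are all members, all genes of the lists of other inhibitors, binding partners, ARF pathway and locus neighbors, up to 3 genes with the largest called, non-overlapping changes of each other list, markers that move with a member, and the 3 genes most correlated with each member. Promoters come from RefSeq GRCm38.p6, which matched 5 of 6 members. Other steps used Python 3.11.15 with pandas 2.3.3, numpy 2.4.6 and matplotlib 3.10.9.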

Additional observations from a re-analysis of the deposited data

Results flagged for a closer look

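Among the 6 tumor-free cerebella, *Brca2*-mut mouse GB512 was separated from the others for 3 of the 6 members by Dixon's gap-to-range ratio, whose 95% critical value is 0.625 for 6 samples. The ratio was taken on TPM with both genotypes pooled, and not on the log2 scale of the other tests. *Cdkn2a* was at 7.74 TPM in GB512, where the next highest value was 1.73 TPM, with a ratio of 0.776. *Cdkn2b* was at 1.5 TPM, with a ratio of 0.748, and *Cdkn2c* at 9.73 TPM, with a ratio of 0.634. No flag arose for *Cdkn2d*, *Cdkn1b* or *Cdkn1c*, and by chance about 1 in 20 groups is flagged. The 3 flags came from 1 mouse and from genes that varied together, so they are not independent of each other. GB512 also held the highest *Mki67*, *Top2a* and *Olig2* of these 6 cerebella, at 5.63, 8.42 and 47.1 TPM, with *Atoh1* at 0.0689 TPM. Without GB512 the log2 difference between tumors and *Brca2*-mut cerebella was 6.46 for *Cdkn2a*, 3.24 for *Cdkn2b* and 3.25 for *Cdkn2c*.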

How the results depend on the processing

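Of 170 counts of called members under the alternatives, 166 kept within 1.5 times the main count. Of 479 log2 differences of a member, 440 kept direction and side of the threshold, 29 reversed, 9 newly passed it and 1 no longer passed it. With an adjusted p under 0.05 and no fold minimum, 5 members were higher in tumors than in *Brca2*-mut cerebella, in place of 3, where all genes gave 29.9% in place of 14.3%, and 3 were higher in adjacent than in tumor-free cerebella, in place of 0, where all genes gave 10.1% in place of 0.224%. With 1 sample left out at a time and the main rule kept, the main count of 0 in adjacent against tumor-free cerebella ranged from 0 to 2. In tumor against adjacent cerebellum the whole table gave 755 genes higher, but 458, 275 and 189 without the tumor of GB344, GB359 and GB370, and 210 without the adjacent cerebellum of GB359, while 2 members were called each time. It gave 1441 with median-of-ratios scaling, 1603 with quantile normalization, 1278 with all 4 groups in 1 fit and 465 with no filter, again with 2 members. Leaving out adjacent cerebella GB344 and GB359, chosen after seeing the data, gave 1 member higher in tumor than in adjacent cerebellum. With the mouse as replicate block, 2 members were called there and the whole table gave 701 genes higher and 2841 lower, and the block changed no call of a member. Quantile normalization moved the median log2 difference of all genes from -0.14 to 0.12 in tumor against adjacent cerebellum. The whole table of adjacent against tumor-free cerebella gave 41 higher and 18 lower with it, in place of 36 and 2. Reversals were of differences that no setting called, and the reversed values reached 0.45 on the log2 scale. Settings that name both genotypes or 1 genotype as control used another control group than the main fit. The fit of tumors against both genotypes stood as an alternative in both comparisons of tumors with tumor-free cerebella. For *Cdkn2d* they were -0.0469 against *Trp53*-mut cerebella with both tumor-free genotypes as control, 0.14, 0.13 and 0.0586 in tumor against adjacent cerebellum with median-of-ratios scaling, quantile normalization and without both adjacent samples, and -0.0776, -0.0534, -0.11 and -0.0388 in adjacent against tumor-free cerebella with the same settings and with *Brca2*-mut cerebella alone as control. For *Cdkn1c* they were 0.13, 0.17 and 0.45 against *Trp53*-mut cerebella with the 2 scalings and both genotypes as control, and 0.39 in adjacent against *Brca2*-mut cerebella alone. For *Cdkn1b* they were -0.0319 in adjacent against tumor-free cerebella without both adjacent samples and 0.0505 between the tumor-free genotypes with median-of-ratios scaling. With 1 sample left out, *Cdkn2d* ranged from -0.0776 to 0.12 against *Trp53*-mut cerebella, from -0.19 to 0.0043 against *Brca2*-mut cerebella, from -0.15 to 0.0431 against adjacent cerebellum, and from -0.0242 to 0.0800 in adjacent against tumor-free cerebella. *Cdkn1c* ranged from -0.32 to 0.14 against *Trp53*-mut cerebella and from -0.26 to 0.0390 in adjacent against tumor-free cerebella. The cause of these reversals was not tested. Unknown depth leaves the precision of values near 0 TPM, such as *Cdkn2a* in tumor-free cerebella, unstated.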
